A study of Arabidopsis thaliana with 12 samples.

Results

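AT4G32060 of *Arabidopsis thaliana* encodes MICU, an EF-hand protein of the mitochondrial calcium uniporter, and it was read by 1 probe, number 2366, of the 3439 probes on the arrays. That probe is annotated to AT4G32060 alone. The gene was chosen by its measured difference between the wild type (WT) and the mutant *psae1* in these same samples, so its levels are given as a description and no test of that difference is given. The samples were total RNA from plants of ecotype Columbia 0, 6 of them WT and 6 from *psae1*, a mutant without the photosystem I protein PSI-E1. Each genotype carried the numbers 1 to 6. The labels give neither the mutant allele nor the tissue, age or growth conditions, and they do not say whether separate plants were used, so the spread between them may be technical. In bulk RNA, a change in the share of cells of a type and a change in RNA per cell cannot be told apart. Of 16 marker genes for leaf, root, seed, guard cell, vascular tissue, trichome and pollen, 0 had a probe of their own, so the tissue was not checked here.

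Mitochondria take up calcium ions through a channel in the inner membrane, the mitochondrial calcium uniporter, whose pore is formed by MCU proteins. MICU proteins sit beside the pore and bind calcium through EF-hands, helix-loop-helix motifs that hold the ion in the loop, and so tune uptake to the calcium level outside the matrix. In Arabidopsis, plants without MICU take calcium into the mitochondrial matrix more readily than the wild type, and calcium in mitochondria is known to rise with stimuli such as cold and touch. RefSeq lists 2 transcripts and 2 proteins for AT4G32060, and which of the transcripts the single probe reads was not checked here.

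The deposited values are linear intensities on an arbitrary scale. In WT, AT4G32060 had an intensity of 2.19 in sample 1 and 2.08 in sample 2. It was 2.14 in WT 3 and 2.03 in WT 4, and 2.16 in WT 5 and 2.05 in WT 6. The WT samples thus lay close to each other, with a coefficient of variation of 3.08%. In *psae1* it was 2.64 in sample 1 and 2.60 in sample 2. It was 2.77 in *psae1* 3 and 2.73 in *psae1* 4, and 2.49 in *psae1* 5 and 2.46 in *psae1* 6. Every *psae1* sample lay above every WT sample, and the lowest *psae1* value was 1.12 times the highest WT value. The mean was 2.11 ± 0.0648 in WT, against 2.61 ± 0.124 in *psae1* (SD over 6 samples each), a ratio of 1.24.

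The column medians differed between the genotypes, so each sample was also set against its own median probe, taken over the probes above 0. The median probe was 0.25 lower in *psae1* than in WT on the log2 scale. Its lowest WT intensity was 0.597 (WT 6), against a highest *psae1* intensity of 0.526 (*psae1* 2). The summed intensities lay closer, with 3611 as the lowest WT sum (WT 3) and 3564 as the highest *psae1* sum (*psae1* 4). The columns thus did not differ by a common factor alone. The shift of the median therefore need not apply to a bright probe such as that of AT4G32060. AT4G32060 was 3.28 to 3.60 times as bright as the median probe in the WT samples and 4.94 to 5.38 times as bright in the *psae1* samples. Centred on the median probe, its log2 intensity was 1.79 ± 0.05 in WT, against 2.35 ± 0.05 in *psae1* (SD over 6 samples each). The difference was 0.56 ± 0.05 on the log2 scale (SE), or 1.47-fold. Without this centring the difference was 0.31. After quantile and after cyclic loess normalization of the 12 samples it was 0.35 each. AT4G32060 was therefore higher in *psae1* on every scale tried, and the size depended on the scale. On the centred scale 220 of 3279 tested probes, 6.71%, had all 6 *psae1* samples above all 6 WT samples, as AT4G32060 did. Among 49 other probes of like WT intensity 10 did, or 20.4%.

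**Figure D1:**
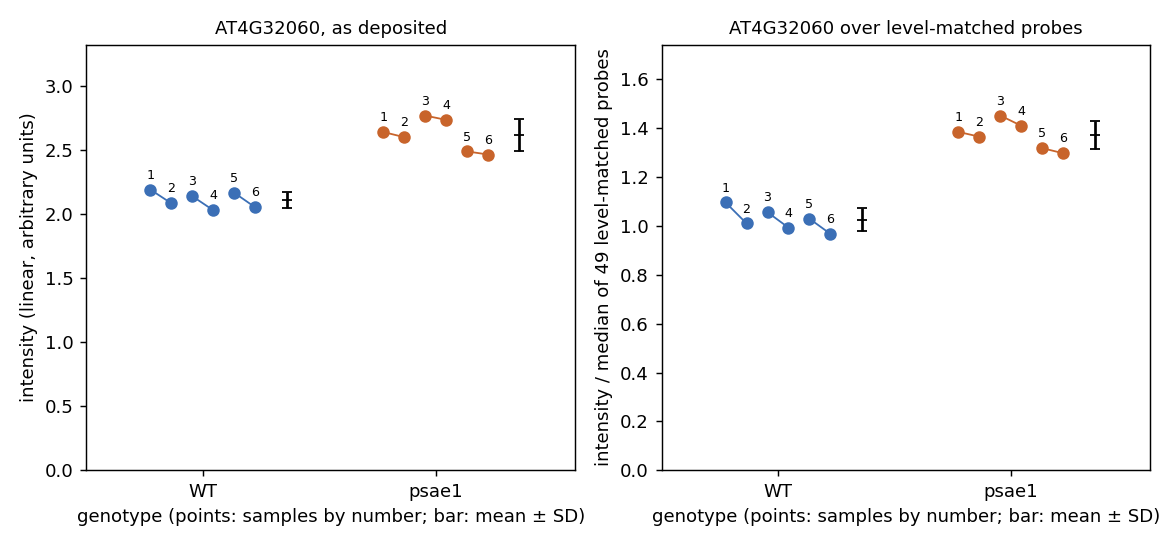
Intensity of AT4G32060 in each sample, as deposited (left, linear arbitrary units) and divided by the median of 49 probes of like WT intensity in the same sample (right). Points are samples with their number, lines join numbers 1 and 2, 3 and 4, and 5 and 6, and bars are the mean ± SD of 6 samples. All *psae1* points lie above all WT points in both panels, at 2.46 to 2.77 against 2.03 to 2.19 on the left.

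By number, the centred difference was 0.48 for samples 1 and 0.54 for samples 2. It was 0.63 for samples 3 and 0.67 for samples 4. For samples 5 it was 0.49 and for samples 6 it was 0.53. The direction was the same in 6 of 6 numbers, as it had to be with every *psae1* sample above every WT sample. Numbers 3 and 4 had the widest gap. Neighbouring numbers (1 and 2, 3 and 4, 5 and 6) of a genotype deviate together over the whole array, with r of 0.33 to 0.61 across 3257 probes, which are not independent replicates. Their averages give 3 values per genotype, which for AT4G32060 were 1.81, 1.76 and 1.81 in WT and 2.32, 2.41 and 2.32 in *psae1*. The averages of the genotypes could not overlap either, for the same reason, so their separation adds nothing. Without numbers 3 and 4 the difference was 0.51, and without numbers 1 and 2 or 5 and 6 it was 0.58 each.

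AT4G32060 varied less between samples than most probes did. Its within-genotype SD of 0.050 in WT compared with a median SD of 0.13 over 3257 probes with 12 measured values. In *psae1* its SD of 0.048 compared with a median of 0.17. Of 49 other probes of like WT intensity, 1 in each genotype varied less. These SDs entered the rule that put the gene among the changed ones, and are a description. A small regular part of its spread followed the numbering, since the odd-numbered sample was the higher of its neighbouring pair in 6 of 6 pairs. The step was 0.06 to 0.09 on the centred log2 scale in WT and 0.02 to 0.04 in *psae1*. Over the array, 7.49% of the probes were higher in the odd sample of all 6 pairs and 6.26% in the even one. From numbers 1, 3 and 5 alone the difference of AT4G32060 was 0.53, and from 2, 4 and 6 alone it was 0.58.

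The probe lay at the 93.9th percentile of brightness in WT, where probes tended to lie above the median difference on the centred scale. To set AT4G32060 beside probes of like level, the 49 other probes whose mean WT intensity was within 10% of its own were taken, with intensities from 1.91 to 2.29. Their median difference between *psae1* and WT was 0.13 on the centred log2 scale, against 0.01 over all tested probes. Their interquartile range ran from −0.03 to 0.28, and 36 lay above 0 and 13 below. AT4G32060, at 0.56, was exceeded by 4 of the 49, none with a single gene annotated, at 0.60 to 0.62. It stood near the top of its brightness class without being the extreme. The number of these probes above AT4G32060 was also 4 after quantile or cyclic loess normalization, and between 2 and 7 under all settings run. Leaving out the centring shifts all these differences alike and so cannot change this number. The probe nearest inside the lower edge of the window had a difference of −0.09 and the nearest outside it 0.13. At the upper edge these were −0.03 inside and 0.26 outside.

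**Figure D2:**
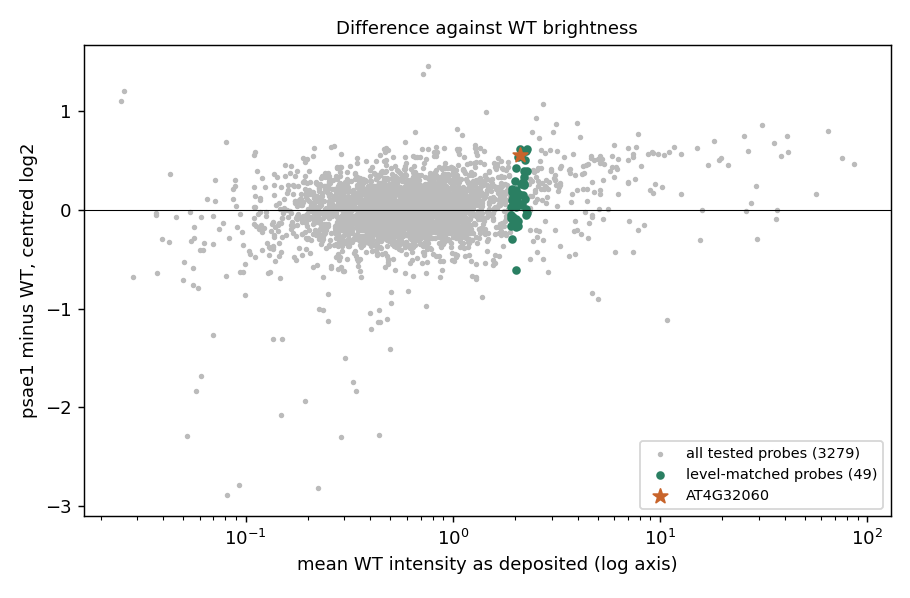
Difference between *psae1* and WT (centred log2 intensity) of each of 3279 tested probes against its mean WT intensity as deposited (log axis). The star is AT4G32060 at 0.56 and the green points are the 49 level-matched probes, whose median is 0.13.

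The intensity of AT4G32060 was divided by the median of these 49 probes in the same sample, a ratio that does not depend on how a sample is scaled. In WT the ratio was 1.10, 1.01, 1.06, 0.993, 1.03 and 0.968 in samples 1 to 6. In *psae1* it was 1.39, 1.37, 1.45, 1.41, 1.32 and 1.30. The gene thus sat at the level of its class in WT, as the choice of the class sets, and above it in every *psae1* sample. On the log2 scale the mean went from 0.04 ± 0.06 in WT to 0.45 ± 0.06 in *psae1* (SD over 6 samples each), a difference of 0.42. The median of the 49 probes was itself 0.14 higher in *psae1* than in WT on the centred scale. By number, the difference of AT4G32060 against the class ran from 0.34 to 0.51. With probes within 5% it was 0.37 (25 probes) and with probes within 20% it was 0.42 (122 probes). Choosing the class by the mean over both genotypes in place of WT gave 38 probes and 0.36, with 3 of them above AT4G32060.

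**Figure D3:**
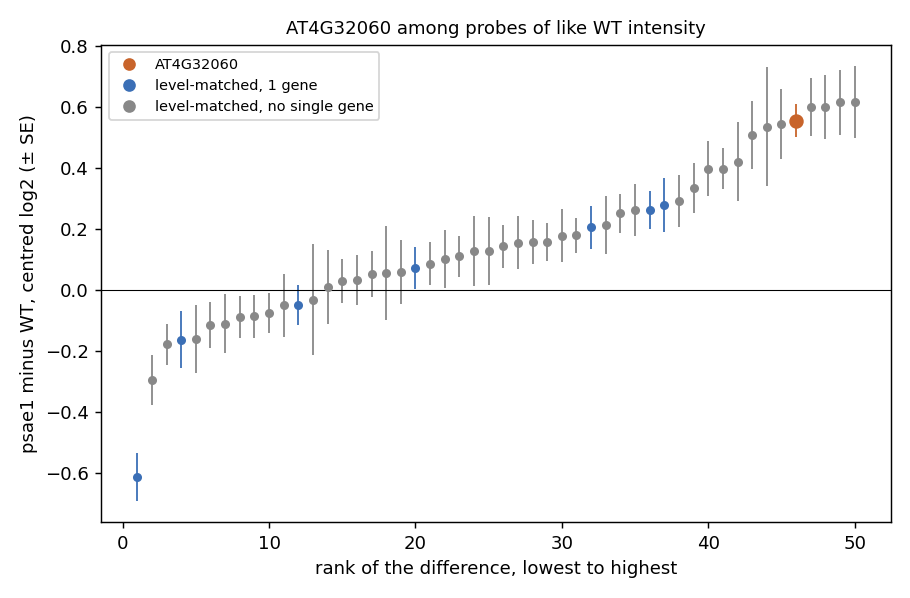
Difference between *psae1* and WT (centred log2 intensity, ± SE) of AT4G32060 and the 49 probes of like WT intensity, ordered from lowest to highest. AT4G32060 (orange) ranks behind 4 probes, and the 7 probes with 1 gene (blue) lie from −0.61 to 0.28.

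By limma over all tested probes, 16 of the 49 level-matched probes were called higher in *psae1* (Benjamini-Hochberg adjusted p under 0.05), or 32.7%, against a background of 11.9%. Called lower were 2 of the 49, or 4.08%, against 10.9%. The split depended on the scale, since it was 6 higher and 9 lower after quantile normalization, 5 and 9 after cyclic loess normalization, and 5 and 14 without centring. Over all probes 391 were higher and 357 lower, which became 243 and 349 after quantile normalization and 111 and 1634 without centring. With neighbouring numbers averaged, 0 of the 49 were called higher and 1 lower, at backgrounds of 1.16% and 1.13%.

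Of the 49 probes 7 carried 1 gene, and AT4G32060 lay above all 7. AT1G74470, which encodes the geranylgeranyl reductase that makes the phytol side chain of chlorophyll, had an intensity of 1.90 to 2.58 in WT and 1.99 to 2.56 in *psae1*. Its genotypes overlapped as deposited, and centred it rose by 0.28 ± 0.09 (SE, limma adjusted p = 0.035). Without centring it was at 0.03, and after quantile or cyclic loess normalization at 0.09, with no call on these scales (limma adjusted p = 0.78, 0.49 and 0.49). The call was also lost in 8 of 12 omissions of a single sample, each WT sample from 1 to 4 and each *psae1* sample 1, 3, 4 and 5 (limma adjusted p up to 0.077). AT1G21660 rose by 0.26 ± 0.06 (limma adjusted p = 0.0079), and was at 0.02 without centring and at 0.07 after quantile or cyclic loess normalization, with no call on these scales (limma adjusted p = 0.85, 0.43 and 0.43). Both lost their calls with neighbouring numbers averaged (limma adjusted p = 0.29 and 0.23).

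AT4G18180 was the single-gene probe that fell, with an intensity of 2.03 ± 0.114 in WT, against 1.13 ± 0.148 in *psae1* (SD over 6 samples each). Its centred difference was −0.61 ± 0.08 (SE, limma adjusted p = 0.00015), and its *psae1* samples, at 0.941 to 1.30, all lay below its WT samples, at 1.91 to 2.19. With neighbouring numbers averaged it still passed (limma adjusted p = 0.043). From numbers 1, 3 and 5 or 2, 4 and 6 alone it did not (limma adjusted p = 0.058 and 0.061). Probes with the same WT level as AT4G32060 thus moved both ways. The other 4 did not pass. AT1G13990 was at 0.21, AT4G13680 at 0.07, AT2G19280 at −0.05 and AT3G47650, a plastid protein related to the Rubisco factor BSD2 of maize, at −0.16. Without centring AT1G13990 and AT4G13680 were below 0, as AT4G13680 also was after quantile and cyclic loess normalization. On these 3 scales AT2G19280 and AT3G47650 passed as lower (limma adjusted p at most 0.038).

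Little else of the calcium machinery could be read. Of 9 genes of mitochondrial calcium handling (MICU, 6 MCU genes, LETM1 and LETM2), AT4G32060 alone had a probe of its own. Of 102 genes for calcium sensors and transporters, 2 had such a probe, and 4 further probes listed such a gene together with others and were not used. Of 75 genes with a mitochondrial name in the gene table, 0 had a probe of their own. Thus the channel subunits that MICU regulates were not analysed here, and no comparison gene could be chosen by a mitochondrial name. The search by name does not show whether other genes read here act in the mitochondrion.

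The 2 genes read were CML30 and CML41, calmodulin-like proteins that, like MICU, bind calcium through EF-hands. CML30 had an intensity between 0.849 and 1.19 in WT, with a median of 0.954, and between 0.949 and 1.15 in *psae1*, with a median of 1.002. The genotypes overlapped. Centred, CML30 went from 0.70 ± 0.19 to 0.99 ± 0.12 on the log2 scale (SD over 6 samples each), a difference of 0.29 ± 0.09 (SE), higher in 5 of 6 same-numbered comparisons, and passed (limma adjusted p = 0.033). Of the 2 genes 1 was thus called higher, at a background of 11.9%, and 0 lower.

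The call of CML30 depended on the setting. With the replicate number as a block its limma adjusted p was 0.052, and with neighbouring numbers averaged it was 0.29. It was also lost without WT 3, 4, 5 or 6, or *psae1* 5 or 6, one sample at a time (limma adjusted p up to 0.074). Without numbers 5 and 6 the difference was 0.15, and without centring 0.04.

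CML41 had an intensity between 0.657 and 0.777 in WT, with a median of 0.756, and between 0.614 and 0.720 in *psae1*, with a median of 0.656. Centred, its difference was 0.08 ± 0.07 (SE, limma adjusted p = 0.41), which did not pass. Without centring it was −0.16 (limma adjusted p = 0.048). The differences of CML30 and CML41 lay 0.27 and 0.47 below that of AT4G32060. The differences between these genes were not tested.

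**Figure D4:**
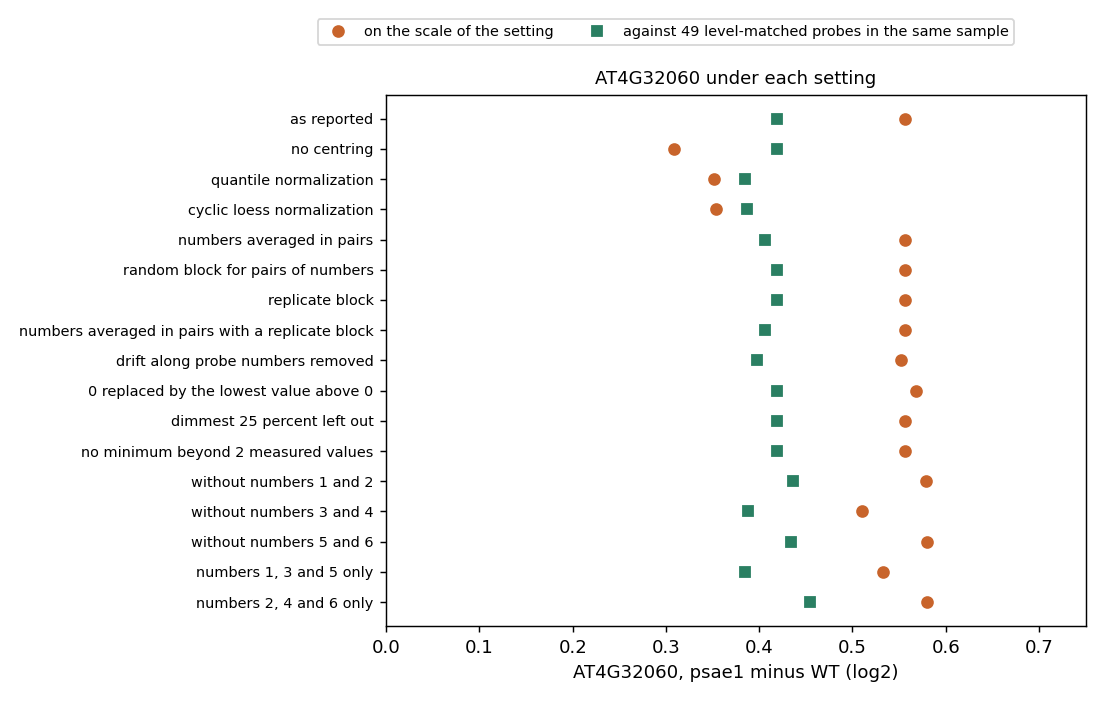
Difference of AT4G32060 between *psae1* and WT (log2) under each setting, on that setting's own scale (circles) and against the 49 level-matched probes in the same sample (squares). The circles move to 0.31 without centring and 0.35 after quantile or cyclic loess normalization, while the squares stay between 0.38 and 0.45.

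The 5 single-gene probes whose pattern over the 12 samples was most like that of AT4G32060 were found by Pearson's r of centred log2 intensity, among 649 with a value in every sample. They were CUTA, with r = 0.96, the light-harvesting gene LHB1B2 and the photosystem I subunit PSAN, with 0.94 each, and AT3G23940 and AT4G27390, with 0.93 each. CUTA is a plastid protein of the copper-binding CutA family, and AT3G23940 encodes dihydroxyacid dehydratase of branched-chain amino acid synthesis. The median r was −0.01 and 11 of the 649 exceeded 0.9. The 12 points share their samples and column centring and fall into 2 genotypes. This r therefore mainly ranks probes by a rise in *psae1* that is wide beside their spread within a genotype, whatever its size.

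The differences of these 5 ran from 0.41 in AT4G27390 to 0.52 in PSAN, against 0.56 in AT4G32060. The order depended on the setting, since with drift along the probe numbers removed PSAN was at 0.64 and AT4G32060 at 0.55, and from numbers 1, 3 and 5 CUTA was at 0.55, PSAN at 0.56 and AT4G32060 at 0.53. All 5 were bright, at WT percentiles of 84.8 to 99.4. CUTA went from 6.28 ± 0.358 in WT to 7.55 ± 0.318 in *psae1* as deposited (SD over 6 samples each), with *psae1* higher in 6 of 6 same-numbered comparisons once centred. After quantile and cyclic loess normalization, where AT4G32060 was at 0.35 each, AT3G23940 was at 0.35 and 0.37. PSAN was then at 0.22 and 0.21, AT4G27390 at 0.19 each, CUTA at 0.17 and 0.18, and LHB1B2 at 0.07 and 0.08.

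With each genotype's mean removed, the likeness to these 5 was weak, with r from 0.00 for PSAN to 0.44 for AT4G27390. The 5 highest r were then 0.75 for LrgB, the plastid carrier of glycolate and glycerate in photorespiration, 0.74 for AT3G50130, 0.71 for AT4G01810, and 0.70 each for AT5G51670 and AT4G14330. Centred, their differences between *psae1* and WT were 0.13, 0.0036, −0.12, −0.35 and −0.14 in the same order, against 0.56 in AT4G32060. AT5G51670, at −0.35, passed as lower (limma adjusted p = 0.010), and did not with neighbouring numbers averaged (limma adjusted p = 0.14). None of these genes was among the first 5. This r rests on 12 deviations that are correlated between neighbouring numbers, over a total spread in AT4G32060 that was small, and 0 of the 649 exceeded 0.8.

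**Figure D5:**
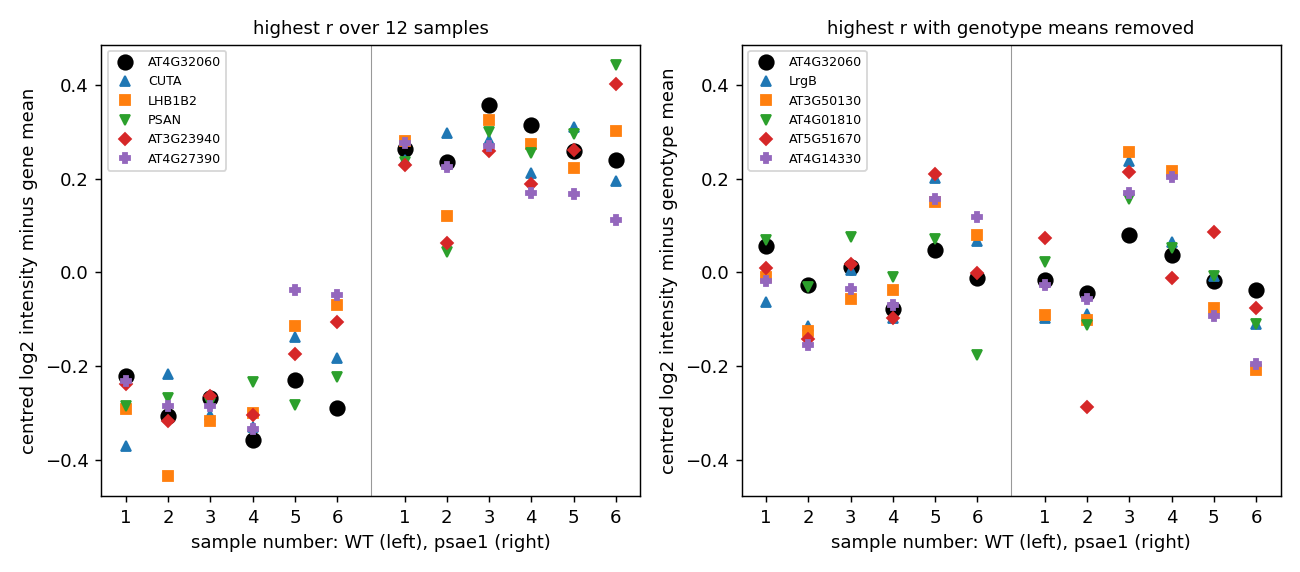
Centred log2 intensity of AT4G32060 (black circles) and 5 single-gene probes in each sample. The 5 have the highest r over 12 samples (left) or with genotype means removed (right). Values are minus each gene's mean over 12 samples (left) or minus its mean in each genotype (right). On the left all 6 genes separate WT from *psae1*, and on the right AT4G32060 varies less than the others.

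The probes with the adjoining numbers did not move with AT4G32060. Probe 2365, with an intensity of 0.780 in WT, was at −0.18 and probe 2367, with 0.741, at −0.29 on the centred log2 scale. Both were called lower (limma adjusted p = 0.045 and 0.030), and neither was with the replicate number as a block (limma adjusted p = 0.059 and 0.052). With neighbouring numbers averaged neither was called (limma adjusted p = 0.41 and 0.28). Omitting a single sample lost the call 9 times for probe 2365 and 5 times for probe 2367. Over the 100 tested probes within 50 numbers on either side the median difference was −0.03, and 2 exceeded AT4G32060. With drift along the probe numbers removed, AT4G32060 was at 0.55. The highest intensity in the series was 100, reached by 9 *psae1* values of other probes, and AT4G32060 was at most 2.77. Whether 100 is a ceiling or follows from scaling is not given. An effect of saturation or of array position was not tested. Whether the probe numbers follow the position on the array is not given in the sources used here.

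Over the series, the intensities of a sample added up to between 3436 and 3678, and the number of probes at 0 ran from 139 to 168. AT4G32060 was above 0 in all 12 samples. No counts lie behind the intensities, and the number of arrays limits the precision. PSAE1, the mutated gene, was not analysed here, and the labels were not checked against its level.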

How the data were processed

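Expression was measured on arrays in 12 samples, 6 WT and 6 *psae1*. The deposited values are linear intensities per probe, and the authors' background correction and scaling are not given in the sources used here. Zeros were treated as missing, the other intensities were taken to log2, and each column was centred on its median. Probes with at least 3 measured values per genotype were fitted with limma 3.58.1 under R 4.3.3 (lmFit, then eBayes). P-values were two-sided and Benjamini-Hochberg adjusted over all 3279 tested probes, at a threshold of 0.05. The code was tested on simulated data. Plots used matplotlib 3.10.9 and Python 3.11.15.

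Gene names came from the platform annotation and a RefSeq gene table, which served for names alone. The annotation gave 1 gene for 692 probes and several for 870, and did not list 1877. Of the 692, 690 matched a locus. Lists were matched by locus, and by words in the gene names, since the table holds no descriptions. Named genes were AT4G32060, the tested list members, the single-gene probes of like WT intensity, the 5 single-gene probes most like AT4G32060 over 12 samples and the 5 most like it with genotype means removed, and the adjoining probes. The gene, lists and tests were chosen with earlier results of these data known.

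Samples of equal number in the 2 genotypes deviated together (r = 0.33, 0.32, 0.33, 0.42, 0.25 and 0.23 in order of number). The labels do not pair them. Unequal numbers were not compared between the genotypes, so these r do not show that the samples pair number by number. The fit given has no replicate block. Alternatives were other scalings, blocks, averaged numbers, filters, windows and omitted samples.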

Additional observations from a re-analysis of the deposited data

Results flagged for a closer look

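In 46 sets of 6 values of the same genotype, 1 held a sample far from the others, where chance gives about 1 in 20. It was the summed intensity of WT 5, at 3678, whose gap to the nearest sample was 0.708 of the range. AT4G32060 itself had no such sample in either genotype. Without WT 5 its difference was 0.57.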

How the results depend on the processing

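The difference of AT4G32060 was 0.56. It was 0.31 as deposited, 0.35 under quantile normalization, 0.35 under cyclic loess, and 0.54 to 0.57 when 1 sample was left out. Against the level-matched probes it was 0.42, 0.36 with the class chosen over both genotypes, and 0.40 to 0.44 when 1 sample was left out. It was above 0 under every setting run. The gene was chosen for this difference, and every *psae1* sample lay above every WT sample. Omitting or averaging samples or adding a block therefore could not change the sign of the difference of AT4G32060. The called probes, 748, became 1745 without centring, 75 with neighbouring numbers averaged, 207 with these averages and a replicate block, 189 with a random block for neighbouring numbers, 393 without numbers 1 and 2, and 43 and 33 from numbers 1, 3 and 5 or 2, 4 and 6 alone. Leaving out 1 sample gave 610 to 761. The replicate block gave 931, and of the 21 genes and probes named beside AT4G32060 it changed the calls of CML30 and of the adjoining probes 2365 and 2367. The single call among calcium sensor genes became 0 after quantile and cyclic loess normalization, with averaged numbers with or without the block, with either block, with drift removed, without numbers 3 and 4 or 5 and 6, and in the fits of odd or of even numbers. Leaving out 1 sample gave 0 to 1. Without centring the 1 call was CML41, lower. Fits of fewer samples have less power by construction, and leaving out the centring shifts every probe alike. The random block kept all samples and gave 189 calls, with a correlation within neighbouring numbers estimated at 0.71. How far lost power or this correlation accounts for the lower counts was not tested, nor was the cause of the other shifts. The fits of numbers 1, 3 and 5 and of 2, 4 and 6 were chosen after seeing the data.

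Of these 21, 7 changed sign under some setting, and none of the 7 had passed. Without centring CML41 was at −0.16, AT4G13680 at −0.17, LrgB at −0.12, AT3G50130 at −0.24 and AT1G13990 at −0.041. AT4G13680 was at −0.10 after quantile normalization, −0.088 after cyclic loess normalization and −0.018 without numbers 3 and 4. AT2G19280 was at 0.045 with drift removed and 0.037 without numbers 5 and 6, where AT4G14330 was at 0.0011. AT3G50130, at 0.0036, was at −0.041 after quantile normalization, −0.031 after cyclic loess normalization, −0.14 without numbers 3 and 4, and between −0.048 and 0.045 when 1 sample was left out.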
